A study of Mus musculus with 21 samples.

Results

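The genes described here are 10 genes of skeletal muscle excitation-contraction coupling and calcium cycling: Cacna1s, Cacnb1, Ryr1, Trdn, Jph1, Jph2, Casq1, Atp2a1, Sln and Pvalb. They were chosen by gene symbol from the deposited count tables, which hold 28541 gene models each, and each symbol had 1 model in both tables. RNA was sequenced from 21 libraries of mouse tissue, 10 of white vastus (WV), the pale portion of the vastus lateralis, a thigh muscle, and 11 of whole brown adipose tissue (BAT). The groups were 5 WV libraries of BATI4KO mice, 5 WV libraries of floxed mice, 6 BAT libraries of BATI4KO mice and 5 BAT libraries of floxed mice. From knowledge of the study, and not from the labels, BATI4KO mice lack Irf4, the gene of the transcription factor interferon regulatory factor 4, in brown adipocytes. The series' design text gives the controls as floxed littermates. The promoter that drives the deletion, the age of the mice and any treatment are not given in the labels. The deletion concerns brown fat, so the WV comparison asks what muscle of such mice contains, and the BAT comparison asks what the fat itself contains. Libraries are named by tissue, genotype (KO for BATI4KO, FX for floxed) and number, as in their titles. In BAT, 3 libraries per genotype have a short number, and 3 BATI4KO and 2 floxed libraries have a longer tag, while every WV library has a longer tag.

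In a skeletal muscle fibre the action potential runs into the transverse tubules, where the voltage-sensing calcium channel CaV1.1 opens the ryanodine receptor of the neighbouring sarcoplasmic reticulum by direct contact. Calcium leaves the store, the fibre contracts, and a calcium pump returns the ion to the store, where a buffer protein holds it. Junctophilins keep both membranes together, triadin ties the buffer to the release channel, and fast fibres add a soluble calcium buffer that speeds relaxation. In beige fat and in muscle, calcium cycling by pumps of the same family has also been studied as a source of heat.

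Depth ranged from 30479508 to 40328627 counts in WV libraries and from 20219479 to 41773148 counts in BAT libraries. Levels below are normalised read counts (CPM) after TMM scaling of all libraries together, given as CPM per kilobase of gene model where genes are compared with each other. Irf4 averaged 5.36 ± 0.396 CPM in BATI4KO BAT (SD, n = 6) and 29.2 ± 12.3 CPM in floxed BAT (SD, n = 5), with no overlap and a log2 difference of -2.45 (edgeR quasi-likelihood test, Benjamini-Hochberg adjusted p = 0.0026). The WV libraries held 11 fast-muscle markers, which include none of the 10 genes, at sums of 159100 to 308900 CPM in BATI4KO mice and 164300 to 267800 CPM in floxed mice. A set of 7 brown adipocyte markers reached sums of 4191 to 9160 CPM in BATI4KO BAT and 5727 to 13380 CPM in floxed BAT, so both tissue labels matched their markers. The same fast-muscle markers were also found in every BAT library, at 172 to 5070 CPM in BATI4KO BAT and 78.2 to 456 CPM in floxed BAT. BAT_KO_3 held the 5070 CPM and stood apart from the other BAT libraries in muscle RNA, so BAT results are given with and without it.

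The first question was how far the machinery of muscle calcium release separates both tissues. In each genotype 9 of the 10 genes were higher in WV (edgeR, adjusted p under 0.05), against 33.1% of all 16632 genes tested in BATI4KO mice and 31.7% in floxed mice. The exception was Sln. Across the 9 genes the log2 difference, WV over BAT, lay between 5.87 and 7.86 in BATI4KO mice and between 6.91 and 10.58 in floxed mice. Together the 10 genes took 3.53 to 5.58% of all counts in WV libraries of BATI4KO mice, 3.66 to 5.28% in WV libraries of floxed mice, 0.0127 to 0.366% in BATI4KO BAT and 0.00296 to 0.0208% in floxed BAT. In whole tissue, fewer cells of a type and less RNA per cell cannot be told apart, and this holds for every comparison here.

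The order of the levels per kilobase in WV was the same in both genotypes. Atp2a1, which encodes SERCA1, the calcium pump of fast fibres, was first at 11760 ± 3672 CPM per kilobase in BATI4KO mice and 10410 ± 2485 in floxed mice (SD, n = 5 each). Pvalb, the gene of parvalbumin, the soluble calcium buffer of fast fibres, came next at 5660 ± 1805 CPM per kilobase in BATI4KO mice and 6392 ± 2173 in floxed mice. The ranges of these first 2 genes overlapped, so their order is not beyond the spread between libraries. Casq1, which encodes calsequestrin 1, the calcium-binding protein inside the store, followed at 2024 ± 535 and 1817 ± 357 CPM per kilobase in BATI4KO and floxed mice, below the whole range of Pvalb and above that of the genes after it. Ryr1, the release channel (600 ± 236 in BATI4KO and 497 ± 164 in floxed mice), Trdn, the gene of triadin (420 ± 36.2 and 411 ± 103), Cacna1s, the pore and voltage sensor of CaV1.1 (373 ± 84.8 and 354 ± 73.2), and Jph2 (335 ± 90.1 and 297 ± 46.6) came next, and each overlapped its neighbour. Jph1 stood below them at 180 ± 40.8 and 165 ± 23.1 CPM per kilobase, and Cacnb1, the beta subunit that brings CaV1.1 to the tubule membrane, below Jph1 at 74.2 ± 10.6 and 72.2 ± 5.37. Sln, which encodes sarcolipin, a small inhibitor of the SERCA pumps, was last at 0.891 ± 0.77 and 0.801 ± 0.406 CPM per kilobase.

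In floxed BAT the order below the first 3 genes was different, although every gene there overlapped its neighbour in range. Atp2a1, Pvalb and Casq1 again led, at 16.8 ± 9.95, 5.86 ± 4.64 and 2.36 ± 1.54 CPM per kilobase (SD, n = 5). Jph2 and Jph1, at 1.04 ± 0.147 and 0.950 ± 0.0454, then stood above Ryr1 at 0.886 ± 0.53, Cacnb1 at 0.853 ± 0.311, Cacna1s at 0.623 ± 0.363 and Trdn at 0.547 ± 0.439. Relative to the median WV library, floxed BAT held 0.592 to 1.72% of the Cacnb1 level, 0.514 to 0.583% of the Jph1 level and 0.289 to 0.398% of the Jph2 level. The 6 genes other than these and Sln had 0.0247 to 0.292% over all their floxed BAT libraries. Only the top of that range, Cacna1s in BAT_FX_5497, reached the Jph2 range. For these 6 genes the highest floxed BAT library was 5.86 to 9.59 times the lowest, against 2.91 times for Cacnb1, 1.13 times for Jph1 and 1.38 times for Jph2.

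**Figure D1:**
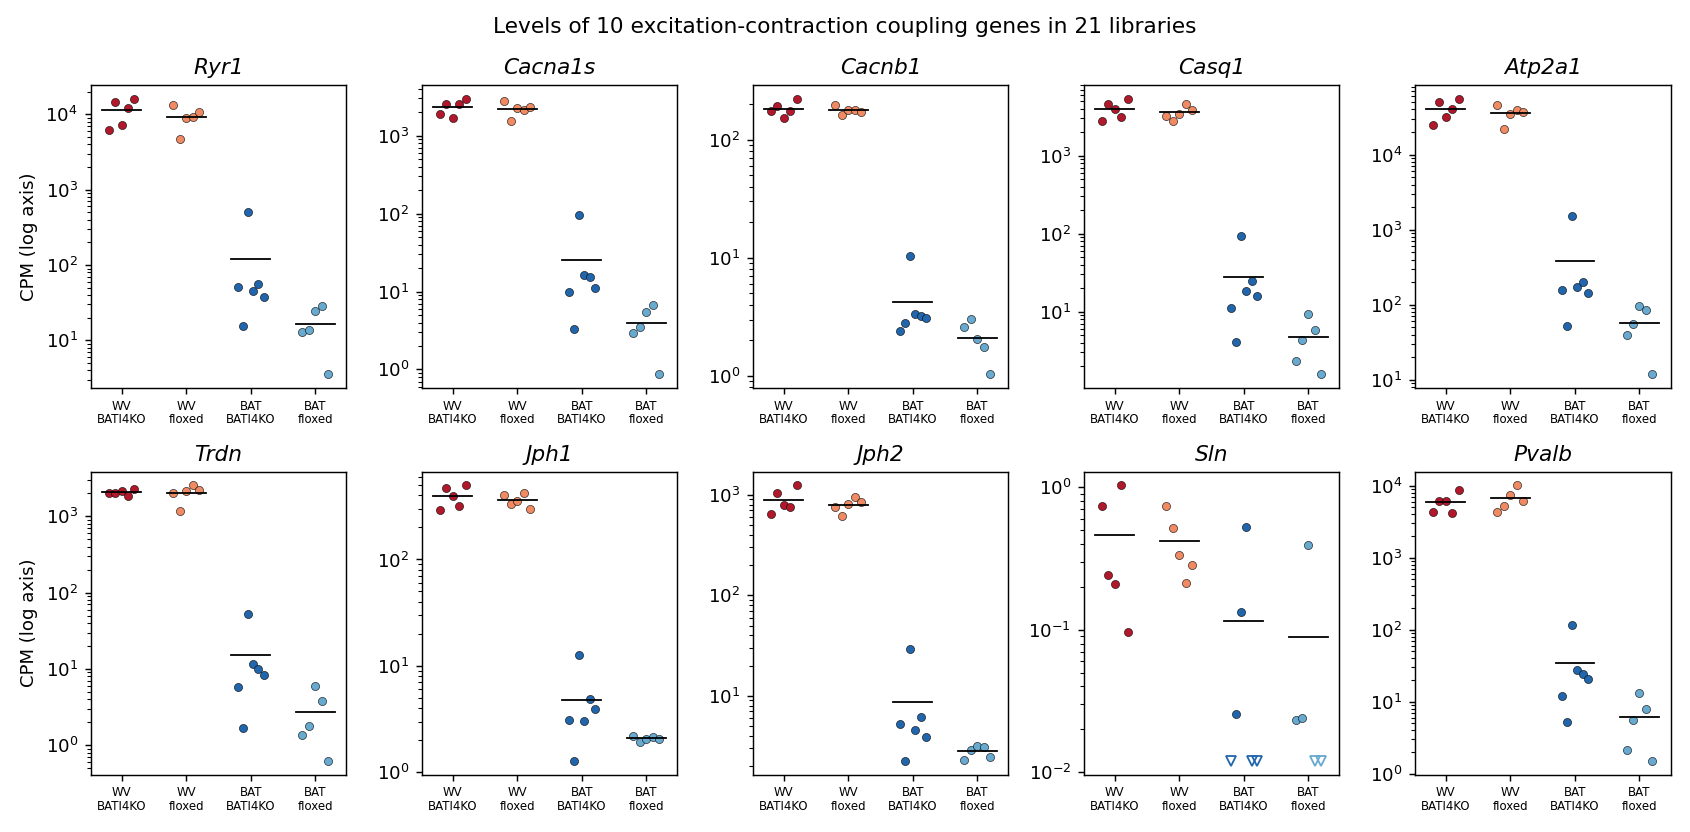
Levels of each gene in every library, in CPM on a log axis, with WV groups left of BAT groups and BATI4KO left of floxed; each point is 1 library, lines are group means and open triangles mark libraries with 0 counts. For every gene but Sln all WV libraries lie far above all BAT libraries, and in BAT the library at the top of 9 panels is BAT_KO_3.

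The tissue difference was smallest for the channel's beta subunit among the 9 genes. Cacnb1 had 173, 191, 152, 173 and 221 CPM in WV of BATI4KO mice, against 2.41 to 10.3 CPM in their BAT with a median of 3.15 CPM. The log2 difference was 5.87 (SE 0.33) in BATI4KO mice and 6.91 (SE 0.371) in floxed mice, with edgeR adjusted p = 1.46e-12 and 9e-13. Cacna1s, its partner subunit, differed by 7.05 (SE 0.813) in BATI4KO mice and 9.60 (SE 0.893) in floxed mice on the same scale. At the other end stood Pvalb, with log2 differences of 7.86 (SE 0.844) and 10.58 (SE 0.963) in BATI4KO and floxed mice (edgeR adjusted p = 3.84e-08 and 3.4e-09). The remaining values in BATI4KO mice were 7.42 for Ryr1, 7.58 for Trdn, 7.59 for Casq1, 7.53 for Atp2a1, 7.21 for Jph2 and 6.53 for Jph1, and each was smaller than its value in floxed mice, where they were 9.74, 10.06, 10.05, 9.92, 8.57 and 7.60 in the same order. The difference between these differences is tested as the interaction further on.

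The second question was whether deletion of Irf4 in brown adipocytes goes with other levels of these genes in BAT. All 9 tested genes had higher fitted levels in BATI4KO BAT, by 1.08 to 2.61 on the log2 scale with a median of 2.54, beside a median of -0.00713 over all 16051 genes tested. None of the 9 passed the test over all genes (edgeR adjusted p from 0.174 to 0.243), where 7 genes or 0.0436% were called. All 9 had an unadjusted p under 0.05, as did 2366 of the 16051 genes. With DESeq2 on the same design, which called 372 genes, 2 of the 9 passed: Casq1 (adjusted p = 0.0325) and Cacnb1 (adjusted p = 0.0462). Each of the 9 genes had at least 30 counts in every library, and Sln had too few counts to be tested.

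The channel of the transverse tubule showed the pattern of most members. Cacna1s had a lowest value of 3.33, a median of 13.1 and a highest of 96.7 CPM in BATI4KO BAT, against 2.92, 3.52, 5.43, 6.74 and 0.871 CPM in floxed BAT. In BATI4KO BAT 5 of 6 libraries were above all floxed libraries, and the sixth, BAT_KO_2, lay inside the floxed range. The log2 difference was 2.61 (SE 0.766, edgeR adjusted p = 0.191). Cacnb1 had 2.41, 3.15 and 10.3 CPM as lowest, median and highest in BATI4KO BAT, against 2.60, 3.02, 2.05, 1.77 and 1.04 CPM in floxed BAT. Here 4 of 6 BATI4KO libraries exceeded all floxed libraries, and without BAT_KO_3 the BATI4KO libraries reached at most 3.32 CPM, close to the highest floxed value of 3.02 CPM. The log2 difference of 1.08 (SE 0.34, edgeR adjusted p = 0.197) was the smallest of the 9.

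Ryr1 encodes the release channel of the sarcoplasmic reticulum. It had 15.7 CPM as the lowest value, 48.2 as the median and 514 as the highest in BATI4KO BAT, against 12.9, 13.8, 24.7, 28.6 and 3.57 CPM in floxed BAT. BAT_KO_3 was 9.28 times as high as the next library, the widest such gap among the 10 genes, while 4 more BATI4KO libraries still lay above all floxed ones. The log2 difference was 2.58 (SE 0.828, edgeR adjusted p = 0.201). Trdn, whose product triadin holds calsequestrin at the release channel, had 1.66, 9.08 and 53.1 CPM as lowest, median and highest in BATI4KO BAT, against 1.34, 1.80, 5.97, 3.74 and 0.622 CPM in floxed BAT. In 4 of 6 BATI4KO libraries it was above all floxed libraries, since BAT_KO_1, at 5.74 CPM, fell just under BAT_FX_3. For Trdn the fitted difference was 2.50 on the log2 scale (SE 0.773, edgeR adjusted p = 0.197).

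Both junctophilins, which hold the tubule and the store membrane at a fixed gap, varied little among floxed BAT libraries. Jph1 had 1.28, 3.52 and 12.6 CPM as lowest, median and highest in BATI4KO BAT, against 2.203, 1.94, 2.05, 2.15 and 2.07 CPM in floxed BAT, where the highest was 1.13 times the lowest. Its BATI4KO values fell on both sides, with 5 libraries above all floxed ones and BAT_KO_2 below all of them. The floxed values rest on 57 to 100 Jph1 counts a library, and that of BAT_KO_2 on 50. Counting error is therefore not small beside this narrow floxed range. Jph2 had 2.25, 4.96 and 29.3 CPM in BATI4KO BAT, against 2.32, 2.90, 3.20, 3.11 and 2.45 CPM in floxed BAT, and showed the same arrangement with BAT_KO_2 just under the floxed range. The log2 differences were 1.19 (SE 0.436) for Jph1 and 1.53 (SE 0.533) for Jph2, with edgeR adjusted p = 0.243 and 0.221.

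Storage, reuptake and cytosolic buffering genes differed by amounts close to that of Ryr1. Casq1 had 4.10, 17.2 and 93.7 CPM as lowest, median and highest in BATI4KO BAT, against 2.34, 4.31, 9.24, 5.83 and 1.58 CPM in floxed BAT (log2 difference 2.61, SE 0.697, edgeR adjusted p = 0.174). Atp2a1 had 53.0, 164 and 1545 CPM in BATI4KO BAT, against 39.5, 55.4, 95.6, 86.4 and 11.9 CPM in floxed BAT (log2 difference 2.55, SE 0.777, edgeR adjusted p = 0.194). For both genes 5 of 6 BATI4KO libraries were above all floxed libraries and BAT_KO_2 lay within the floxed range. Pvalb had 5.17, 22.4 and 118 CPM in BATI4KO BAT, against 2.11, 5.56, 13.3, 7.85 and 1.51 CPM in floxed BAT (log2 difference 2.54, SE 0.75, edgeR adjusted p = 0.191). For Pvalb 4 of 6 BATI4KO libraries exceeded all floxed ones. None of the 10 genes had all BATI4KO libraries above all floxed libraries, an arrangement that 94 of the 16051 genes showed (0.586%).

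The size of these differences depended on BAT_KO_3. Without BAT_KO_3, the 9 log2 differences lay between 0.51 and 1.48 with a median of 1.27 (edgeR adjusted p from 0.303 to 0.436). Among short-number libraries the range was 0.99 to 3.48, with adjusted p of at least 0.656. In longer-tag libraries, where BAT_KO_3 is absent, it was 0.82 to 2.41, with adjusted p of at least 0.135. The sign was therefore positive without the extreme library and among longer-tag libraries, and no value passed edgeR's test. The positive values of the short-number libraries include BAT_KO_3. In the other short-number BATI4KO libraries, BAT_KO_1 and BAT_KO_2, Cacnb1 had 2.41 and 2.79 CPM, inside the short-number floxed range of 2.05 to 3.02 CPM. Ryr1 had 50.7 and 15.7 CPM there, against 12.9 to 24.7 CPM in short-number floxed libraries.

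Fast-muscle markers moved with these genes across the BAT libraries. The sum of the 11 markers had a lowest value of 172, a median of 1011 and a highest of 5070 CPM in BATI4KO BAT, against 123, 183, 342, 456 and 78.2 CPM in floxed BAT. BAT_KO_3 was highest and BAT_FX_5503 lowest, as for 7 of the 10 genes, and BAT_KO_2 again lay within the floxed range. With the mean log2 level of the markers added to the fit as a covariate, the 9 log2 differences between genotypes were -0.22 to 0.17 with a median of -0.04 (edgeR adjusted p from 0.905 to 1). In that fit Ryr1 was at -0.08 (SE 0.219), Cacna1s at -0.0006 (SE 0.249), Atp2a1 at -0.04 (SE 0.134), Casq1 at 0.17 (SE 0.16) and Pvalb at 0.04 (SE 0.213). The 7 slow-muscle markers summed to 3.38 to 143 CPM in BATI4KO BAT and 2.76 to 7.08 CPM in floxed BAT, and BAT_KO_5414 was the highest. Sums of 5 smooth-muscle markers overlapped between the genotypes, at 65.8 to 94.3 CPM in BATI4KO BAT and 67.9 to 116 CPM in floxed BAT, and so did those of 4 nerve and Schwann cell markers, at 31.5 to 47.9 CPM and 20.0 to 46.7 CPM. Cardiac and satellite-cell markers were near 0. The 5 cardiac markers reached at most 3.08 CPM in BATI4KO BAT and 1.22 CPM in floxed BAT, and the 3 satellite-cell markers at most 0.334 and 0.144 CPM. The short structural RNAs Rmrp and Rpph1 summed to 23.3 to 62.0 CPM in the 5 longer-tag BAT libraries and 657 to 2523 CPM in the 6 short-number ones. Both ranges hold both genotypes. These RNAs were listed as markers of RNA quality, but whether their levels follow RNA quality here was not tested.

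**Figure D2:**
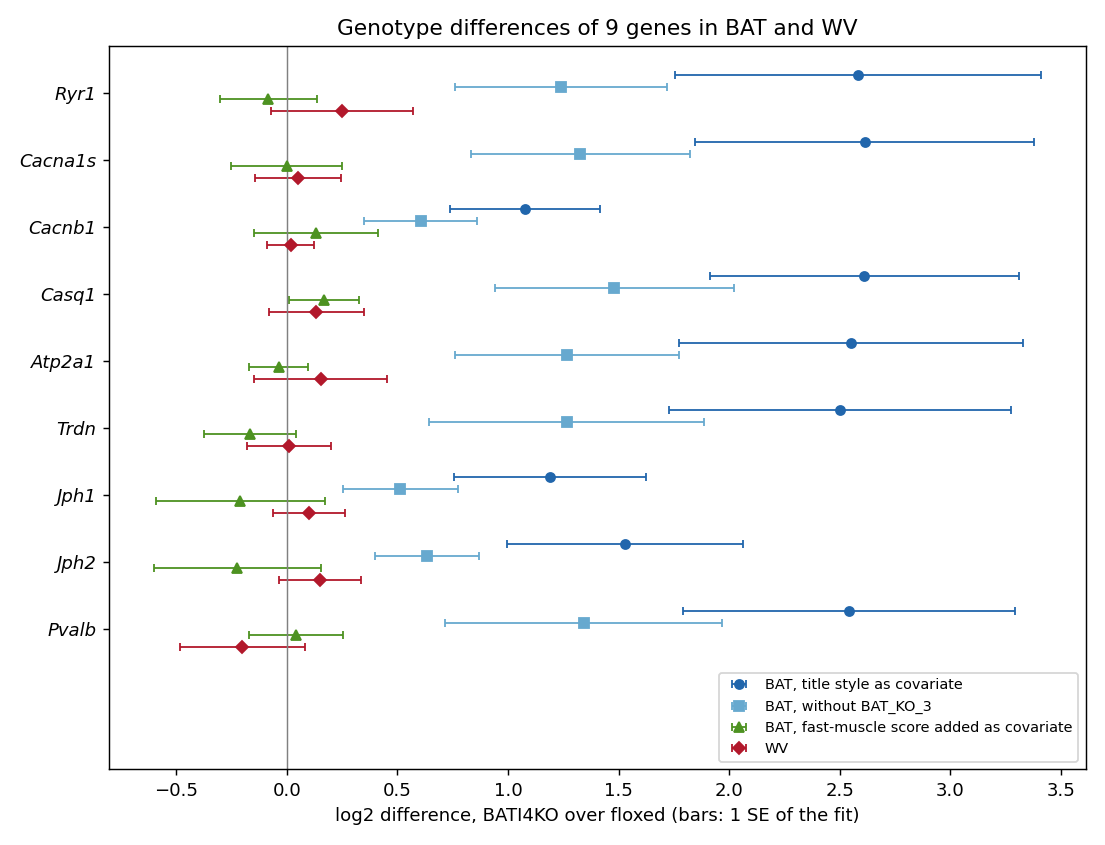
Log2 differences, BATI4KO over floxed, of 9 genes with 1 SE of the edgeR fit as bars, in BAT with title style as covariate, in BAT without BAT_KO_3, in BAT with the fast-muscle marker score added, and in WV. The BAT values of 1.08 to 2.61 lie lower without BAT_KO_3 and near 0 with the score, where the WV values also lie.

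Set against the markers, the 9 genes fell into different levels of proportion. Per 1000 counts of fast-muscle markers, Casq1 had a median of 17.4 counts in WV of BATI4KO mice, 16.9 in WV of floxed mice, 19.01 in BATI4KO BAT and 20.2 in floxed BAT. Trdn had 8.23, 9.498, 9.84 and 9.82 in the same groups, and Pvalb 26.7, 31.4, 23.6 and 19.4. For these 3 genes the ranges of all 4 groups overlapped, although their levels differed between tissues by factors of 192 to 1530. The ranges of all 4 groups also overlapped for Atp2a1 and Ryr1. Atp2a1 (medians of 176, 152, 228 and 279), Ryr1 (52.0, 40.0, 67.6 and 72.2) and Cacna1s (9.64, 10.1, 16.2 and 15.8) had lower medians in both WV groups than in both BAT groups. For Cacna1s the WV ranges, up to 11.75 in BATI4KO and 11.6 in floxed mice, met that of floxed BAT, from 11.13, but not that of BATI4KO BAT, from 12.2. In BAT the proportions of Atp2a1, Ryr1 and Cacna1s also went with title style. Longer-tag and short-number BAT libraries had 148.4 to 189.4 and 279 to 320.1 for Atp2a1. For Ryr1 they had 39.78 to 62.62 and 72.19 to 104.8, and for Cacna1s 11.13 to 14.78 and 15.84 to 23.67. Every WV library has a longer tag, so the lower WV medians cannot be laid to tissue alone.

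Cacnb1, Jph1 and Jph2 had fewer counts per marker count in WV. Cacnb1 had 0.676 to 1.09 counts per 1000 marker counts in WV of BATI4KO mice and 0.667 to 0.979 in WV of floxed mice, against 2.04 to 16.2 in BATI4KO BAT and 3.88 to 21.04 in floxed BAT. Jph1 had 1.43 to 1.88 and 1.32 to 2.02 in WV of BATI4KO and floxed mice, against 2.49 to 7.42 in BATI4KO BAT and 4.71 to 26.5 in floxed BAT. For both genes no WV library overlapped a BAT library. Jph2 had 3.44 to 4.09 and 3.16 to 3.78 in WV of BATI4KO and floxed mice, against 4.02 to 13.1 in BATI4KO BAT and 6.81 to 31.3 in floxed BAT, so that the WV range met the lowest BATI4KO BAT library. Over the 11 BAT libraries the highest level was 9.96 times the lowest for Cacnb1, 9.84 times for Jph1 and 13.02 times for Jph2, while the marker sum spanned 64.8-fold, Casq1 59.4-fold and Ryr1 144-fold. These proportions are descriptions of the libraries and were not tested. In the RefSeq annotation the gene span of Cacnb1 overlaps that of the ribosomal protein gene Rpl19, and the span of Atp2a1 that of Rabep2. Spans of Ryr1, Casq1, Trdn, Jph1 and Jph2 overlap only non-coding genes or pseudogenes. Whether the overlaps lie in counted sequence was not looked up. Whether counting used the strand is not given in the sources used here, so reads from any counted sequence that such pairs share cannot be told apart.

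**Figure D3:**
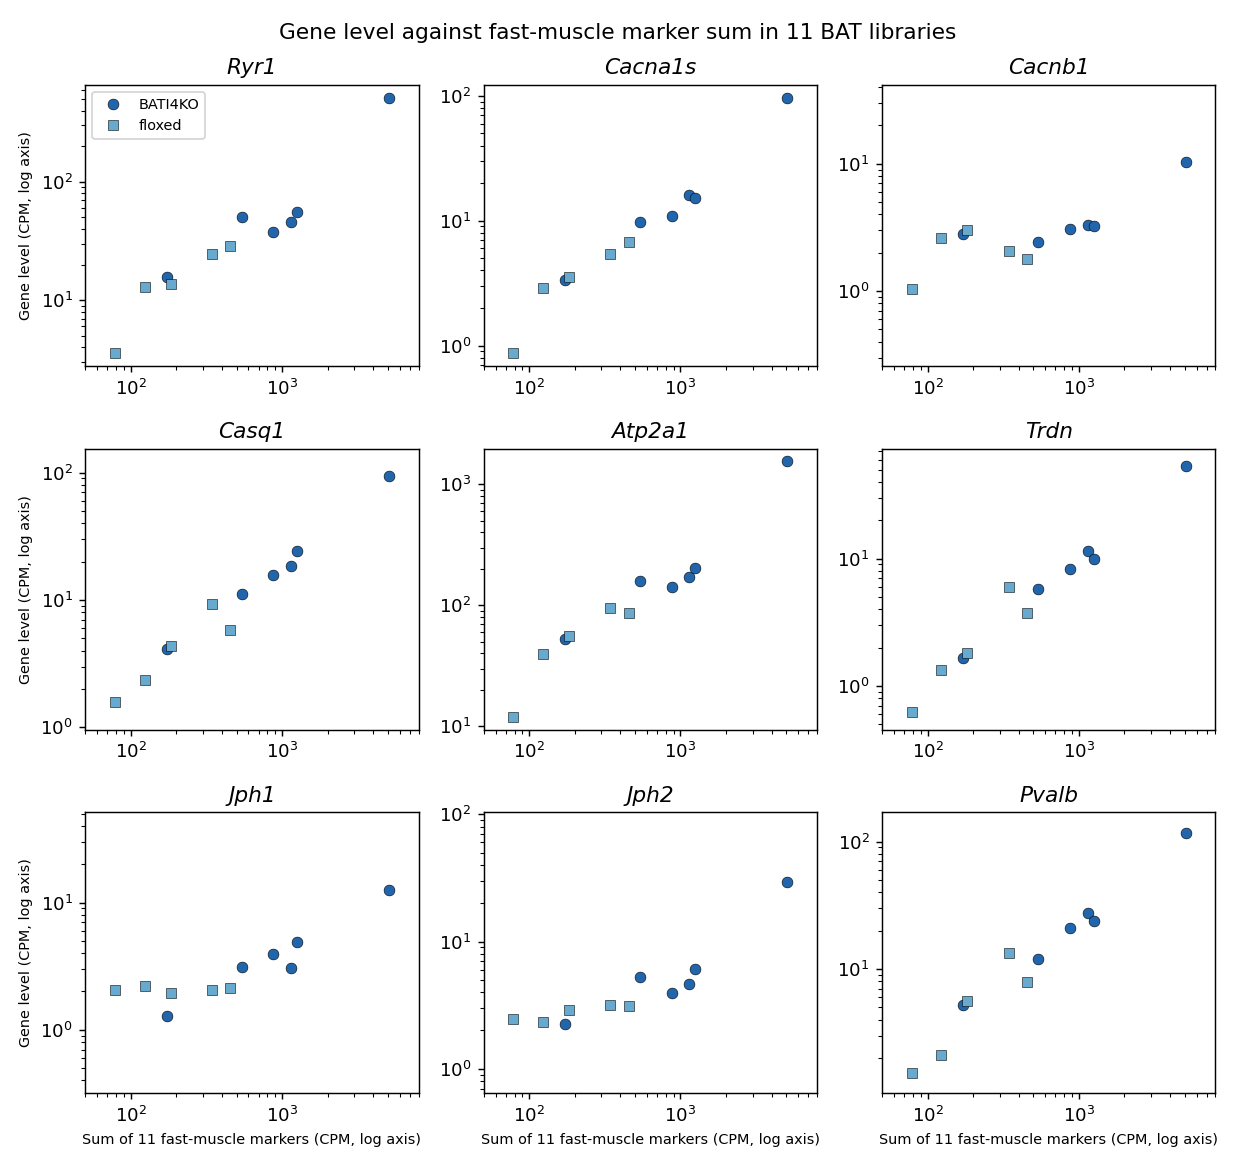
Level of 9 genes against the sum of 11 fast-muscle markers in the 11 BAT libraries, both in CPM on log axes, with circles for BATI4KO and squares for floxed libraries. Ryr1, Cacna1s, Casq1, Atp2a1, Trdn and Pvalb climb over the whole range of marker sums from 78.2 to 5070 CPM. Over the floxed libraries alone, up to a sum of 456 CPM, Cacnb1 spans 2.91-fold, Jph1 1.13-fold and Jph2 1.38-fold. Over all 11 libraries Cacnb1 spans 9.96-fold, Jph1 9.84-fold and Jph2 13.02-fold, each highest in BAT_KO_3.

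**Figure D4:**
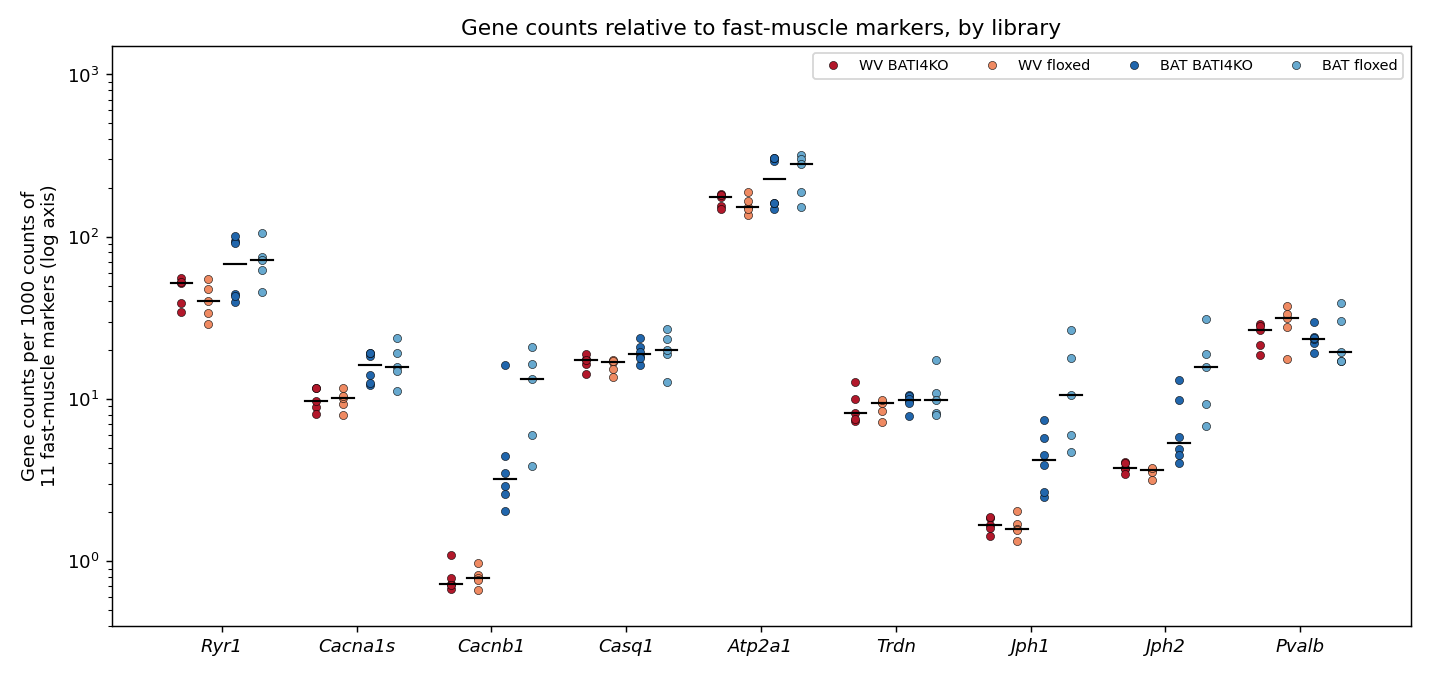
Counts of 9 genes per 1000 counts of the fast-muscle markers, on a log axis, for each library of the 4 groups, with group medians as lines. For Casq1, Trdn, Pvalb, Atp2a1 and Ryr1 the ranges of the 4 groups overlap, and for Cacnb1 and Jph1 all WV libraries lie below all BAT libraries.

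Promoter sequence is shown for 3 genes whose proportion to the markers overlapped in range between all 4 groups (Atp2a1, Casq1 and Pvalb) and for 2 with a low proportion in WV (Cacnb1 and Jph2), a choice made after these values were seen. The RefSeq table of the mouse build GRCm38.p6 held 10 windows for 7 of the 10 genes. Each sequence below is the 250 bases before an annotated start, read 5′ to 3′ on the gene's strand, and capitals mark an E-box (CANNTG, the core recognised by myogenic regulators such as MyoD, which is the same on both strands) or a MEF2 box, searched on both strands.
Atp2a1, chr7:126463074-126463323, minus strand: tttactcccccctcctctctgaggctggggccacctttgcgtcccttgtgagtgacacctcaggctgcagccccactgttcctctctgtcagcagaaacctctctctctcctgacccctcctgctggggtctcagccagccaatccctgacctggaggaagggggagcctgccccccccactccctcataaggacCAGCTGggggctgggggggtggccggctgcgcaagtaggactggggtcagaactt
Casq1, chr1:172219896-172220145, minus strand: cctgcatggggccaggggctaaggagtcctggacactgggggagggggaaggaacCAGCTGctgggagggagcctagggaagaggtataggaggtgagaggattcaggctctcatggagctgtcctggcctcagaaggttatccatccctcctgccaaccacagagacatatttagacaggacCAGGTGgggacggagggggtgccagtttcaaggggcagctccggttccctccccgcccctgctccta
Pvalb, window 1, chr15:78206401-78206650, minus strand: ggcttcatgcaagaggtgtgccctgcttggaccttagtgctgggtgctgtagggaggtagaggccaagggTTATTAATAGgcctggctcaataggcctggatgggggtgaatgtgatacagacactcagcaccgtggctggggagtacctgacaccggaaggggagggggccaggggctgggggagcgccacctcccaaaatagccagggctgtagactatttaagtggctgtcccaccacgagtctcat
Cacnb1, window 1, chr11:98022628-98022877, minus strand: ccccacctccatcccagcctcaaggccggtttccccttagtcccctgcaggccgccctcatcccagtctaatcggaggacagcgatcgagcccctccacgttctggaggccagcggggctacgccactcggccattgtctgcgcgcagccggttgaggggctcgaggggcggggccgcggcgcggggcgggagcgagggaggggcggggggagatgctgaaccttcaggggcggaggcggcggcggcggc
Jph2, window 1, chr2:163397994-163398243, minus strand: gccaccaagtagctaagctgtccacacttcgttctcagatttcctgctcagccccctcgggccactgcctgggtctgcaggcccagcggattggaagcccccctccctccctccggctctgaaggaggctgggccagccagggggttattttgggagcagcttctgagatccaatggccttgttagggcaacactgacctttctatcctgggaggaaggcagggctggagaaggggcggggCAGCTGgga
The Casq1 window holds 2 E-boxes, the Atp2a1 and Jph2 windows 1 each, and the Cacnb1 and Pvalb windows shown none. Cacnb1 and Pvalb each have another window, not shown, that holds 1. The MEF2 box of the Pvalb window was the only one among the 10 windows, against 2.92% of all 32851 windows. An E-box was present in 7 of the 10 windows, against 66.2% of all windows, so its presence does not mark these genes out. No CArG box, the element bound by serum response factor, was in the 10 windows, against 1.47% of all. The windows were 64.0% G or C for Atp2a1, 61.6% for Casq1, 58.4% for Pvalb, 73.2% for Cacnb1 and 62.0% for Jph2. A match is only a match of letters, and the counted gene models come from build mm9, in which these starts were not looked up.

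The third question was whether muscle of mice that lack Irf4 in brown fat carries other levels of the calcium release genes. None of the 9 tested genes was called in WV (edgeR adjusted p from 0.857 to 0.993), where 1 of 14529 genes or 0.00688% was called, and none of the 9 had an unadjusted p under 0.05, as 1295 of all genes did. DESeq2 called 111 genes and none of the 9. The log2 differences, BATI4KO over floxed, ran from -0.20 for Pvalb to 0.25 for Ryr1 with a median of 0.10, beside -0.00776 over all genes tested.

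Ryr1 varied most among WV libraries of the 9 genes. It had 6176, 14713, 7259, 12351 and 16175 CPM in BATI4KO WV, against 13230, 4766, 9023, 9117 and 10768 CPM in floxed WV. Both groups span more than their difference, and the log2 difference of 0.25 had an interval of -0.381 to 0.879 (the estimate ± 1.96 SE). Cacnb1 was the steadiest, with 152 to 221 CPM in BATI4KO WV and 161 to 197 CPM in floxed WV. Its log2 difference of 0.02 had an interval of -0.191 to 0.227, the narrowest of the 9. For Cacna1s the interval was -0.328 to 0.433, with 1704 to 2978 CPM in BATI4KO WV and 1523 to 2794 CPM in floxed WV.

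The junctional and luminal genes overlapped in the same way. Trdn had 2013, 2054, 2123, 1824 and 2315 CPM in BATI4KO WV, against 2019, 1180, 2163, 2544 and 2213 CPM in floxed WV, where WV_FX_5415 alone lay far below the rest. Jph1 had 293 to 496 CPM in BATI4KO WV and 297 to 417 CPM in floxed WV, and Jph2 had 650 to 1241 CPM and 610 to 949 CPM. Casq1 had 2807, 4665, 4010, 3158 and 5379 CPM in BATI4KO WV, against 3272, 2777, 3428, 4660 and 3834 CPM in floxed WV. The log2 intervals were -0.366 to 0.385 for Trdn, -0.217 to 0.421 for Jph1, -0.214 to 0.512 for Jph2 and -0.285 to 0.554 for Casq1. WV_KO_5496 was the highest WV library for 7 of the 10 genes and WV_FX_5415 the lowest for 6. The fast-muscle marker sum was also highest in WV_KO_5496, at 308900 CPM, while WV_FX_5415, at 164300 CPM, was next to lowest after WV_KO_5492.

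Reuptake and buffering genes of the fast fibre differed from each other in which libraries were low. Atp2a1 had 24742, 49613, 31611, 40680 and 55591 CPM in BATI4KO WV, against 45247, 22260, 34352, 39637 and 37507 CPM in floxed WV, with an interval of -0.436 to 0.742 for the log2 difference. Pvalb had 4255, 6109, 6152, 4105 and 8726 CPM in BATI4KO WV, against 4260, 5159, 7482, 10039 and 6201 CPM in floxed WV, with an interval of -0.751 to 0.352. The lowest Pvalb values were those of WV_KO_5495, WV_KO_5492 and WV_FX_5413. WV_KO_5492 and WV_KO_5495 also held the highest sums of 7 slow-muscle markers, 1790 and 2346 CPM. The other BATI4KO WV libraries held 67.7, 28.9 and 23.4 CPM. Floxed WV held 6.17 to 598 CPM, with 103 CPM in WV_FX_5413. With the slow-muscle score as a covariate the Pvalb difference was -0.11 and no gene of the 9 was called.

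The structural RNAs stood at different levels in both genotypes of WV. The sum of Rmrp and Rpph1 was 35.3 to 54.1 CPM in BATI4KO WV, against 50.5, 66.6, 511, 554 and 600 CPM in floxed WV. With Rmrp as a covariate the sign of Pvalb turned, to 0.47 (SE 0.378, edgeR adjusted p = 0.999), and the other 8 differences stayed positive at 0.02 to 0.47. In the 7 WV libraries with low Rmrp, an alternative chosen after seeing the data, Pvalb was at 0.30 (SE 0.349). With library totals in place of TMM scaling, the signs of Cacna1s (-0.06), Cacnb1 (-0.10), Trdn (-0.07) and Jph1 (-0.02) turned.

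The interaction asked whether the genotype difference in BAT differed from that in WV. It was positive for all 10 genes, from 0.56 for Sln to 2.72 for Pvalb on the log2 scale, and none passed (edgeR adjusted p from 0.295 to 0.929), where 3 of 16632 genes or 0.018% were called. Of the 10 genes 9 had an unadjusted p under 0.05, as did 1766 of all genes, and DESeq2, with 55 calls, called none of them. Ryr1 had 2.32 (SE 0.947), Casq1 2.46 (SE 0.769) and Pvalb 2.72 (SE 0.856). Without BAT library BAT_KO_3 these values were 0.97, 1.32 and 1.52.

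Sln had few counts in either tissue. It had 23, 6, 6, 23 and 2 counts in BATI4KO WV, against 15, 15, 9, 5 and 6 counts in floxed WV, and 0 to 24 counts in BATI4KO BAT, against 1, 1, 11, 0 and 0 counts in floxed BAT. Of the 6 BATI4KO BAT libraries 3 had 0 counts, 1 had 1, BAT_KO_3 had 4 and BAT_KO_5414 had 24. A count of 0 allows up to 3 counts, which is 0.0693 to 0.0853 CPM in those 3 BATI4KO libraries and 0.0622 and 0.0757 CPM in both floxed libraries with 0 (counting error only). The log2 difference, WV over BAT, was 1.86 (SE 0.993, edgeR adjusted p = 0.101) in BATI4KO mice and 2.41 (SE 1.31, edgeR adjusted p = 0.11) in floxed mice. These values rested on single BAT libraries. Without BAT_KO_5414 they were 7.69 (edgeR adjusted p = 0.000383) and 6.26 (0.00204), and without BAT_FX_3 the floxed difference was 4.22 (0.0116). Fitted differences of a gene with so many counts of 0 depend on the prior count of the fit and bound nothing.

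High Sln counts stood beside slow-muscle markers in 3 libraries. WV_KO_5492 and WV_KO_5495 were the WV libraries with the highest slow-muscle sums, and each had 23 Sln counts. BAT_KO_5414 was the BAT library with the highest slow-muscle sum, 143 CPM, against 2.76 to 7.08 CPM in floxed BAT, and had 24 Sln counts. Other libraries went otherwise. BAT_FX_3 had 11 Sln counts at a slow-muscle sum of 7.08 CPM, and BAT_KO_5494 had 0 counts at 23.3 CPM. In WV, WV_FX_5514 had 6 counts at 598 CPM and WV_FX_5415 had 15 counts at 26.5 CPM. Whether fibre type or another source of RNA has a part in these counts was not tested.

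**Figure D5:**
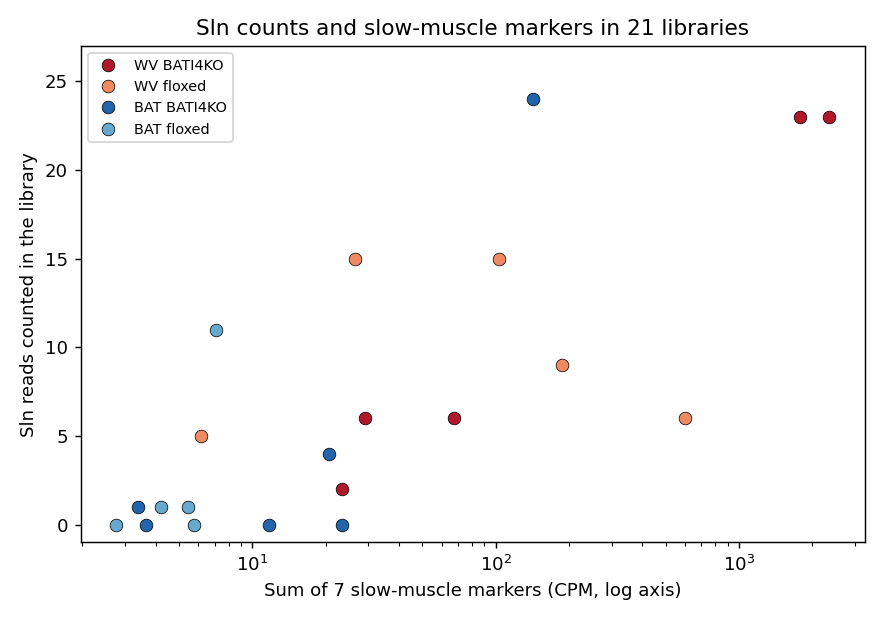
Sln reads per library against the sum of 7 slow-muscle markers in CPM on a log axis, coloured by group. The 3 libraries with 23 or 24 reads have slow-muscle sums of 143, 1790 and 2346 CPM, and 5 BAT libraries have 0 reads.

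Other genes of the triad and of muscle calcium handling, 26 chosen beside the 10, gave a mixed picture. Of 25 found, 22 were higher and 1 lower in WV in BATI4KO mice, and 20 higher and 3 lower in floxed mice (edgeR, all 25 tested). Of all 16632 genes tested, 33.1% were higher and 37.4% lower in WV in BATI4KO mice, and 31.7% higher and 34.1% lower in floxed mice. Stac3, an adaptor that CaV1.1 needs to open the release channel, was higher by 6.804 (SE 0.483) in BATI4KO mice and 8.70 (SE 0.536) in floxed mice, and Bin1, which shapes transverse tubules, by 5.54 (SE 0.26) and 6.21 (SE 0.28). Casq2, Pln and Ryr3 differed less than the 9 genes other than Sln. Casq2, the other calsequestrin, was higher in WV by 4.47 in both genotypes. Pln, the phospholamban that inhibits SERCA pumps, was higher by 2.47 and 2.98, and Ryr3, another ryanodine receptor, by 2.84 and 3.20 (edgeR adjusted p of all at most 2.2e-05). Atp2a2, which encodes SERCA2, the pump of slow fibres and of many other cells, was lower in WV of floxed mice by a log2 difference of -2.13 (SE 0.644, edgeR adjusted p = 0.00625), and at 0.02 (SE 0.605, adjusted p = 0.982) in BATI4KO mice. It had a median of 82.2 CPM in WV and 280 CPM in BAT of BATI4KO mice, against 58.7 CPM in WV and 414 CPM in BAT of floxed mice. The Atp2a2 medians thus differed between tissues in BATI4KO mice too. The fitted 0.02 follows the means, and the BATI4KO WV libraries, whose range is given below, spread widely. S100a1 was lower in WV in both genotypes, by -1.27 and -1.28, and Mtm1 in floxed mice, by -0.29.

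Between genotypes none of these genes was called. In BAT 17 of 24 tested genes were positive with a median of 0.82 (14 with an unadjusted p under 0.05), led by Hrc, a histidine-rich calcium-binding protein of the store, at 2.80 (SE 0.689, edgeR adjusted p = 0.154). Stac3 at 1.93 (SE 0.522) and Trim72 at 2.14 (SE 0.578), a membrane repair protein, both had edgeR adjusted p = 0.177. Of the 24 tested genes 2 had all BATI4KO libraries above all floxed ones, as did 94 of all 16051 genes tested (0.586%). Stac3 was 1 of these 2, at 0.768 to 5.78 CPM against 0.228 to 0.758 CPM, so the gap was narrow. Atp2a2 went the other way in BAT at -0.38 (SE 0.125, edgeR adjusted p = 0.207), with 269 to 335 CPM in BATI4KO BAT and 241 to 430 CPM in floxed BAT. In WV Atp2a2 was at 1.75 (SE 0.738, edgeR adjusted p = 0.53), with 55.3 to 799 CPM in BATI4KO WV and 47.3 to 212 CPM in floxed WV, and the list's median was 0.08 with 1 gene at an unadjusted p under 0.05.

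General calcium store and transport genes, 19 in all, divided between the tissues. In WV 12 were higher and 6 lower in BATI4KO mice, and 13 higher and 6 lower in floxed mice (edgeR, all 19 tested). Over all genes tested the shares were 33.1% higher and 37.4% lower in BATI4KO mice, and 31.7% higher and 34.1% lower in floxed mice. Itpr2, an inositol trisphosphate receptor, was lower in WV by -3.91 (SE 0.155) and -3.29 (SE 0.159), while Slc8a1, the sodium-calcium exchanger, was higher by 4.16 (SE 0.196) and 3.67 (SE 0.209), and Orai1, the store-operated channel, by 2.44 (SE 0.124) and 2.67 (SE 0.141), in BATI4KO and floxed mice (edgeR adjusted p of all at most 2.2e-12). Between genotypes none was called in BAT (median -0.05, 1 unadjusted p under 0.05, Ryr2 at -1.64) or in WV (median 0.05, 2 unadjusted p under 0.05, Slc8a1 at 0.55 and Itpr2 at -0.36).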

How the data were processed

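Whole BAT and WV of mice were profiled by RNA sequencing after depletion of ribosomal RNA, random-hexamer cDNA synthesis and transposase tagmentation, per the labels' protocols. The authors deposited 1 table of raw counts a tissue, with 1 row for each model, its symbol and its length, per the file headers. Genome build mm9, alignment software TopHat2 and the counting program featureCounts 1.4.6 are among the items in the submitters' processing notes. Strand handling was not given in the sources used here.

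From the deposited counts, edgeR 4.0.16 (R 4.3.3, limma 3.58.1) was used for quasi-likelihood tests with filterByExpr, TMM scaling and Benjamini-Hochberg adjustment over all tested genes at 0.05. BAT was fitted with genotype and title style, WV with genotype, and tissue contrasts and the interaction in a joint fit of 21 libraries with title style, so that WV minus BAT is taken at longer tags. The script was tested on simulated data. Printed CPM use TMM factors from all libraries, and fold changes come from the fits. Each printed SE is the absolute log2 difference divided by the square root of the test's F statistic. Intervals use the normal multiplier of 1.96, so they are narrower than the quasi-likelihood test would give. Marker scores are mean log2 CPM with a prior count of 2. DESeq2 1.42.0, other scalings and filters, covariates, subsets and leaving out each library were alternatives. The labels do not say that libraries come from separate animals, so p-values measure the spread between libraries, which may be technical. Chi-square values per gene between libraries of a group were at least 30.4, so no library was a copy of another in its group. Pairs from different groups were not compared in this way. All 10 members are named in each comparison. Of the other lists, Atp2a2, Pln, Casq2, Ryr3 and Stac3 and up to 3 genes with the smallest p were to be named, and S100a1, Mtm1 and the overlapping genes were added after their values were seen. The members and lists were chosen with earlier results of these data known. Mrln was not analysed here.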

Additional observations from a re-analysis of the deposited data

Results flagged for a closer look

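In each group of 5 or 6 libraries, the gap between an extreme library and its nearest neighbour was set against the group's range (Dixon's 95% limit). Of 40 groups tested, 11 held such a library. Chance gives about 1 in 20 for normally distributed values. Unlogged CPM and the small counts of Sln need not be so distributed, so that rate is no firm reference here. In BAT, 9 of the 11 were the same library, BAT_KO_3. It lay above its group with 513.7 CPM of Ryr1, 96.65 of Cacna1s, 10.33 of Cacnb1, 93.68 of Casq1, 1545 of Atp2a1, 53.14 of Trdn, 12.6 of Jph1, 29.34 of Jph2 and 117.9 of Pvalb. It also held 5070 CPM of fast-muscle markers, against 172 to 1249 CPM in the other BATI4KO BAT libraries. These 9 genes are not independent of each other, and the part of muscle RNA in this library's levels was not tested. The fit with the marker score cannot decide it, because the markers are fast-muscle genes that moved with these genes.

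The other 2 concern Sln in BAT. BAT_KO_5414 had 0.5275 CPM, from 24 counts, and BAT_FX_3 had 0.3954 CPM, from 11 counts, while the other BAT libraries had 0 to 4 counts.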

How the results depend on the processing

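The tissue differences of the 9 genes other than Sln kept their direction and their call in all 270 values per genotype, and the interaction of the 9 stayed positive and uncalled in all 270. In BAT, 190 of 198 genotype values kept direction and side of the threshold. DESeq2 called 2 members, and 6 signs turned with the fast-muscle score: Ryr1 -0.083, Cacna1s -0.00060, Atp2a1 -0.036, Trdn -0.17, Jph1 -0.21 and Jph2 -0.22. The count of 7 called genes in BAT was 3 with upper-quartile scaling and with a filter of 1 CPM in 5 libraries, 372 with DESeq2, 1 without title style or with the score, 0 in short-number libraries, and 1 to 16 with a library left out. In WV, 157 of 171 values kept their direction. The signs that turned were Cacna1s -0.057, Cacnb1 -0.098, Trdn -0.071 and Jph1 -0.025 with library totals, and Pvalb 0.47 with Rmrp and 0.30 in the 7 libraries with low Rmrp (chosen after seeing the data). With a library left out, Cacna1s ran from -0.055 to 0.15, Cacnb1 from -0.055 to 0.066, Trdn from -0.13 to 0.11, Pvalb from -0.38 to 0.00044 and the Sln interaction from -1.43 to 2.74. The count of 1 called gene in WV was 0 with library totals, upper-quartile scaling, the stricter filter or low-Rmrp libraries, 5 without a filter, 111 with DESeq2, 3 with the slow-muscle score, 2 with Rmrp, and 0 to 11 with a library left out. The interaction count of 3 was 55 with DESeq2, 20 with longer tags, and 3 to 30 with a library left out. The cause was not tested. Summing models of a symbol changed nothing, since each member has 1.

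Whether title numbers shared between groups pair the libraries is not given in the labels, and the main fits took all libraries as unpaired. Same-numbered BAT libraries had correlations of 0.131, -0.106 and 0.0755 in their deviations, and tags found in both tissues -0.084 to 0.113. Such low correlations cannot show that the libraries are unpaired. With a replicate block the BAT count was 0 (short numbers, member differences 0.67 to 2.16) and the interaction count 0 (4 shared tags). Depth limits Sln, whose counts per library lay between 0 and 24.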
